A study of Homo sapiens with 4 samples.

Results

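The tumour necrosis factor (TNF) superfamily and its receptors were described in SKOV3, an ovarian cancer cell line, grown as spheroids on polymer X or flat on tissue culture plastic. The members were the genes whose symbol is TNFSF or TNFRSF with a number, together with TNF, LTA, LTB, LTBR, FAS, FASLG, CD40, CD27, CD70, NGFR, EDAR, EDA2R and RELT. They came to 45 of the 19475 gene symbols in the table, 16 encoding ligands and 29 encoding receptors. The rule left out CD40LG and EDA, the ligands of CD40 and of EDAR and EDA2R. CD40LG was at 0 FPKM in all 4 libraries, and EDA reached at most 0.067 FPKM.

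mRNA was sequenced from 2 libraries of cells on the tissue culture plate at day 0 (TCP) and from 2 libraries of cells at day 8 on a plate coated with the polymer X thin film (polyX). All 4 libraries came from unmodified SKOV3 cells, with no drug or genetic change named in the labels. The substrate and the culture time changed together, and the study's methods give a serum replacement medium for spheroids but fetal bovine serum for routine culture, so the effects of substrate, time and, if it differed, medium cannot be told apart. The labels do not say whether the libraries of a group came from separate cultures, so the p-values measure only the spread between these libraries.

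Ligands of this family are mostly trimeric membrane proteins that can be shed, and they bind receptors with cysteine-rich repeats outside the cell. Death domain receptors such as FAS, TNFRSF1A, TNFRSF10A and TNFRSF10B can recruit caspases through FADD or turn on NF-kappaB through TRADD and RIPK1. Receptors without that domain, such as CD40, CD27, TNFRSF9 and TNFRSF12A, signal through TRAF adaptors to NF-kappaB. Decoy receptors bind a ligand but carry no complete death domain, and some of them are secreted. In ovarian cancer cells the family is known for its links to apoptosis, to inflammatory cytokines and to contact with immune cells.

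Of the 45 members, 22 had at least 1 FPKM (fragments scaled to transcript length and library depth) in at least 2 libraries and were tested, 4 of them ligands and 18 receptors. A gene was called where limma on log2(FPKM + 1) gave a Benjamini-Hochberg adjusted p under 0.05 over 11964 tested genes and the log2 fold change was at least 1 in size. Fold changes on this scale understate the change of genes with low FPKM. On polymer X 6 members rose, TNFRSF11B, CD40, TNFSF10, TNFRSF25, FAS and TNFRSF10B, and 2 fell, TNFRSF12A and TNFRSF9. Over all tested genes 20.2% were called, 10.7% higher and 9.45% lower. The share of tested members called was 36.4%, with 27.3% higher and 9.09% lower. A further 11 members had an adjusted p under 0.05 with a smaller fold change, and 3 did not reach that threshold. CD27, TNFRSF10C and TNFRSF11B passed the filter only through polymer X and TNFRSF9 only through TCP, so these 4 had to differ. Among the other 18 members 5 were called higher and 1 lower. With 2 libraries a group, an exact two-sided permutation test of a single gene cannot give a p below 0.333, so the calls depend on limma's pooling of the spread over all tested genes.

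**Figure D1:**
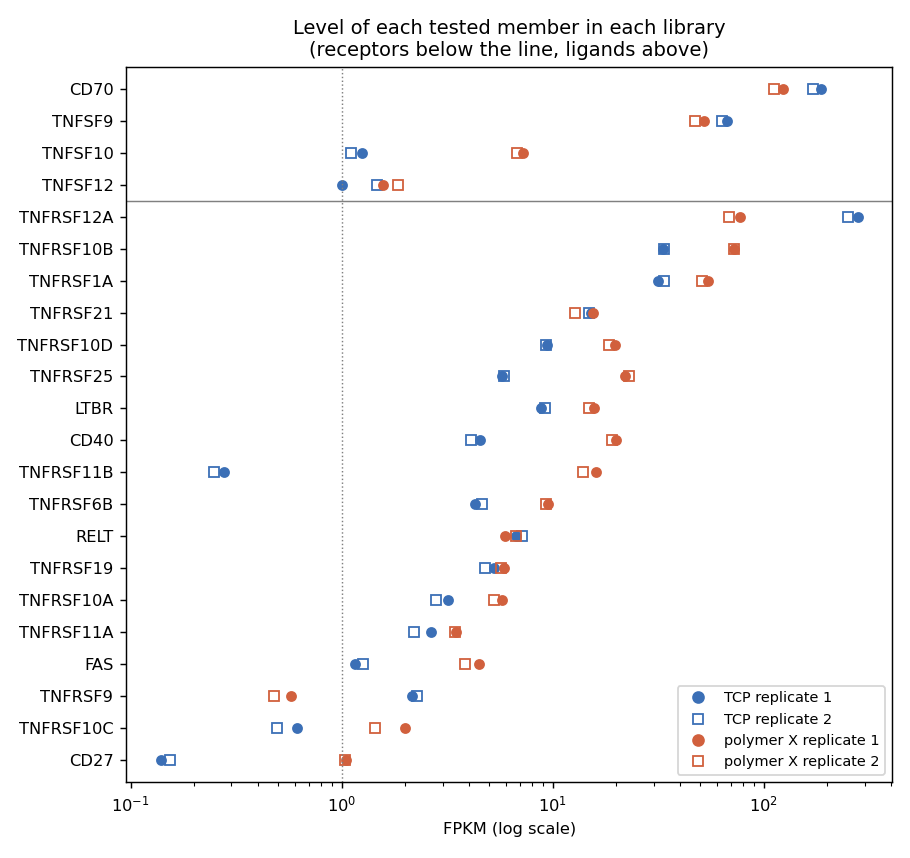
FPKM of the 22 tested members in each library, on a log axis, with ligands above the line and receptors below it. The dotted line marks 1 FPKM, and TNFRSF12A and CD70 lie farthest to the right on TCP while TNFRSF11B shows the widest gap between the groups.

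Promoter sequences are printed for the called members that the RefSeq promoter table lists, so that the genes that changed can be read beside their values. The table matched 30 of the 45 members and 4 of the 8 called, TNFSF10, FAS, TNFRSF25 and TNFRSF9. CD40, TNFRSF10B, TNFRSF11B and TNFRSF12A had no entry. Each line gives the 250 bases before the transcript start, 5′ to 3′ on the gene's strand, in build GRCh38.p14. The starts were matched by gene symbol only, so they can differ from those of the hg19 transcripts whose FPKM is given. TNFSF10 is on the minus strand at chr3:172523431-172523680, TNFRSF9 on the minus strand at chr1:7940840-7941089, TNFRSF25 on the minus strand at chr1:6466174-6466423, and FAS, at the first of its 3 listed starts, on the plus strand at chr10:88990548-88990797. Capitals mark matches on either strand to AANNGAAA, a short form of the interferon regulatory factor site, TTCNNNGAA, a form of the STAT site, TGACTCA, the AP-1 site, or the kappaB consensus.
TNFSF10: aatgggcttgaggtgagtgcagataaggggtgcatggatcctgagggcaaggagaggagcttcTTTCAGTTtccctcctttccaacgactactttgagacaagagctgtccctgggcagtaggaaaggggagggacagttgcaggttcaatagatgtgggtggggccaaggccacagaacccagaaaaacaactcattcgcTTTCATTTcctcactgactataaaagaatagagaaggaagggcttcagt
TNFRSF9: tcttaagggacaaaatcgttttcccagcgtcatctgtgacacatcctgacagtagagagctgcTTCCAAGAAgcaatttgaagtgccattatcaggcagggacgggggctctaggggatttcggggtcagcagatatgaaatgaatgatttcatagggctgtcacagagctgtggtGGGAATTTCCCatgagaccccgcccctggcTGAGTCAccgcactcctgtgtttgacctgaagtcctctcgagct
TNFRSF25: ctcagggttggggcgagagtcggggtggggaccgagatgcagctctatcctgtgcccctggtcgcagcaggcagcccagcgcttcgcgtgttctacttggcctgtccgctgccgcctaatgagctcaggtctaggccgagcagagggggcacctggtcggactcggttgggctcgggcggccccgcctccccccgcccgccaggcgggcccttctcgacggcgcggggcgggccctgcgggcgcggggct
FAS: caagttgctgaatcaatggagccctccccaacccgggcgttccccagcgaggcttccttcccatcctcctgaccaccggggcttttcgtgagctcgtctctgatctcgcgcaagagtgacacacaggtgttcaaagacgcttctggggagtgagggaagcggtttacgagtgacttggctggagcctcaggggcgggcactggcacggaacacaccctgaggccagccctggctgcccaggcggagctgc

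The TNFSF10 sequence held 2 matches to AANNGAAA, 187 and 49 bases before the start, which 20.3% of the 35116 promoters of the table hold at least 1 time. The TNFRSF9 sequence held 1 match to TTCNNNGAA, found in 6.57% of all promoters, 1 to TGACTCA, found in 4.2%, and 2 overlapping matches to the kappaB consensus, found in 9.96%. No match lay in the TNFRSF25 window or in the FAS window printed. Of the 2 other FAS starts, 1 had a kappaB match and 1 a match to AANNGAAA. These matches describe the letters only, and no binding was measured.

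The gene of the death-inducing ligand TRAIL, TNFSF10, was called higher on polymer X. So were 2 of its 5 receptors, TNFRSF10B and TNFRSF11B, beside 10.7% of all tested genes. TNFRSF10A, TNFRSF10C and TNFRSF10D were also higher without overlap, but under the fold change minimum. TNFRSF11B and TNFRSF10C passed the filter only through polymer X, so they had to differ. TNFSF10 (hg19 chr3:172223298-172241297, minus strand) was at 1.24 and 1.11 FPKM on TCP and at 7.24 and 6.73 FPKM on polymer X. Both polymer X libraries lay above both TCP libraries, a 5.94-fold ratio of mean FPKM and a log2 fold change of 1.88 ± 0.08 (SE, limma, adjusted p = 3.5e-08). It was the ligand with the highest log2 fold change of the 4 tested. Its 3 listed transcripts ranged from 1.08 to 1.89 in log2 fold change.

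TNFRSF10B, also called DR5, is a death domain receptor of TRAIL and had the highest level of the 5 receptors in every library. It was at 33.3 and 33.6 FPKM on TCP and at 72.1 and 71.8 FPKM on polymer X (log2 fold change 1.08 ± 0.05, limma, adjusted p = 9.4e-08). The groups were well apart, and the 95% interval of 0.96 to 1.20 spans the fold change minimum of 1. TNFRSF10A, the other death receptor (DR4), was at 3.18 and 2.79 FPKM on TCP and at 5.72 and 5.25 FPKM on polymer X, with a log2 difference of 0.70 that did not reach that minimum (adjusted p = 2.9e-05). The groups did not overlap for TNFRSF10A. TNFRSF10B shares 63 bases of span with RHOBTB2 on the opposite strand. RHOBTB2 was at 10.2 and 10.4 FPKM on TCP and at 8.97 and 8.78 FPKM on polymer X.

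TNFRSF11B, osteoprotegerin, is a secreted decoy that binds TRAIL and the bone ligand RANKL, TNFSF11. It was at 0.278 and 0.247 FPKM on TCP and at 16.0 and 13.9 FPKM on polymer X, a 57.0-fold ratio of mean FPKM. Its log2 fold change of 3.66 ± 0.08 (limma, adjusted p = 1.7e-09) had the largest size among the 22 tested members. The membrane decoy TNFRSF10D was at 9.35 and 9.27 FPKM on TCP and at 19.8 and 18.5 FPKM on polymer X, with a log2 difference of 0.97 just under the minimum (adjusted p = 5.4e-07). The decoy TNFRSF10C, which has a lipid anchor and no intracellular part, was at 0.613 and 0.494 FPKM on TCP and at 1.98 and 1.44 FPKM on polymer X, a log2 difference of 0.80 (adjusted p = 1.0e-04) that was 0.33 (adjusted p = 0.03) after quantile normalization. In both decoys the polymer X libraries lay above the TCP libraries. TNFRSF10A, TNFRSF10B, TNFRSF10C and TNFRSF10D are neighbouring paralogs within hg19 chr8:22877648-23082680 whose reads can be shared, so their separate values are uncertain.

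The summed FPKM of the death receptors TNFRSF10A and TNFRSF10B was 36.5 and 36.4 on TCP and 77.8 and 77.1 on polymer X. The summed FPKM of the membrane decoys was 9.96 and 9.76 on TCP and 21.77 and 19.96 on polymer X. The ratio of death receptors to membrane decoys was 3.66 and 3.73 on TCP and 3.57 and 3.86 on polymer X, so the groups overlapped. With TNFRSF11B added to the decoys, the ratio was 3.56 and 3.64 on TCP and 2.06 and 2.28 on polymer X. The polymer X libraries then lay below the TCP libraries. These ratios compare mRNA levels per length and were not put to a test.

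**Figure D2:**
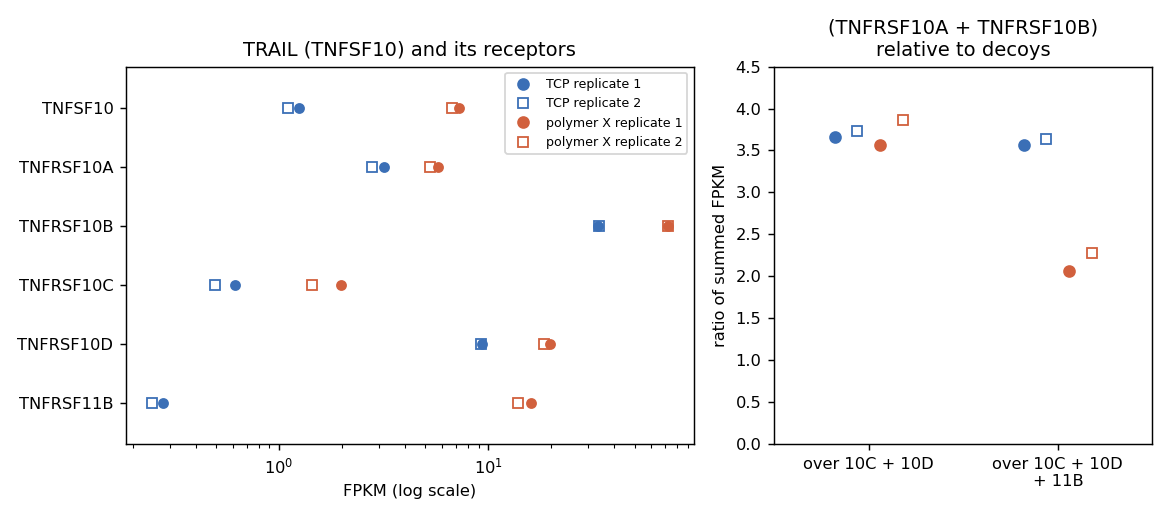
FPKM of TNFSF10 and its 5 receptors in each library on a log axis (left), and the ratio of summed FPKM of TNFRSF10A and TNFRSF10B to that of the decoys without and with TNFRSF11B (right, axis from 0). The ratio spans 3.57 to 3.86 in all 4 libraries without TNFRSF11B, and with it the polymer X libraries are at 2.06 and 2.28.

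Of the 8 death domain receptors, 6 were tested, and 3 of them rose, TNFRSF25, FAS and TNFRSF10B, with none lower, beside 10.7% of all tested genes higher and 9.45% lower. TNFRSF25, DR3, the receptor of TL1A (TNFSF15), lies at hg19 chr1:6521214-6526255 on the minus strand. It was at 5.72 and 5.85 FPKM on TCP and at 22.1 and 22.9 FPKM on polymer X (log2 fold change 1.79 ± 0.06, limma, adjusted p = 1.1e-08). Its libraries agreed closely within each group, and its 6 transcripts ranged from 1.79 to 1.84. TNFRSF25 shares 104 bases of genomic span on the same strand with PLEKHG5, which was at 8.50 and 8.62 FPKM on TCP and at 25.3 and 27.4 FPKM on polymer X, and the part of PLEKHG5 reads in the TNFRSF25 value was not tested.

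FAS, the receptor of FAS ligand, lies at hg19 chr10:90750316-90776818 on the plus strand. It was at 1.16 and 1.26 FPKM on TCP and at 4.49 and 3.85 FPKM on polymer X (log2 fold change 1.22 ± 0.09, limma, adjusted p = 1.1e-06). Both polymer X libraries were above both TCP libraries, but FAS was at 0.99 after quantile normalization and was then not called. FAS shares 839 bases of span with ACTA2 on the opposite strand, and ACTA2 was at 0.505 and 0.609 FPKM on TCP and at 2.28 and 2.85 FPKM on polymer X. The counting is not stated to use strand, so reads there cannot be told apart. Its ligand gene FASLG had 0 and 4 tags on TCP and 0 on polymer X, where a tag is 1 sequenced read recovered from the FPKM.

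TNFRSF1A, the main receptor of TNF on most cells, was at 31.5 and 33.8 FPKM on TCP and at 54.3 and 51.0 FPKM on polymer X. The groups did not overlap, with a log2 difference of 0.67 (adjusted p = 5.8e-06) that was under the fold change minimum. TNFRSF21, DR6, was at 15.2 and 14.9 FPKM on TCP and at 15.4 and 12.8 FPKM on polymer X, with overlapping groups. Its log2 difference of -0.09 had a 95% interval of -0.28 to 0.10 (adjusted p = 0.33), and it was 0.06 after quantile normalization. NGFR and EDAR, the other 2 death domain receptors, were too low to test.

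CD40, which acts in antigen-presenting and many epithelial cells and signals through TRAF adaptors, rose on polymer X. The gene (hg19 chr20:44746893-44758384, plus strand) was at 4.54 and 4.08 FPKM on TCP and at 19.8 and 19.1 FPKM on polymer X. Its log2 fold change was 1.95 ± 0.07 (limma, adjusted p = 1.3e-08), and its 5 transcripts ranged from 1.95 to 1.97. The libraries of each group lay close together, and the ratio of mean FPKM was 4.52-fold.

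LTBR, the lymphotoxin beta receptor, was at 8.83 and 9.23 FPKM on TCP and at 15.7 and 14.9 FPKM on polymer X, a log2 difference of 0.70 (adjusted p = 5.2e-06). LTBR shares 1990 bases of span with SCNN1A on the opposite strand, which was at 0.503 and 0.652 FPKM on TCP and at 1.78 and 1.87 FPKM on polymer X. TNFRSF6B, DcR3, a secreted decoy for FAS ligand, TL1A and LIGHT, was at 4.28 and 4.61 FPKM on TCP and at 9.45 and 9.30 FPKM on polymer X, a log2 difference of 0.93 (adjusted p = 1.3e-06). Neither LTBR nor TNFRSF6B was called, and for both the polymer X libraries were above the TCP libraries. TNFRSF6B shares 57 bases of span with ARFRP1 on the opposite strand. ARFRP1 was at 19.4 and 20.7 FPKM on TCP and at 28.5 and 27.9 FPKM on polymer X. The 4 decoy receptors spanned log2 differences of 0.80 to 3.66, with TNFRSF11B alone called (25%, beside 10.7% of all tested genes higher). TNFRSF10C and TNFRSF11B, at the ends of this range, passed the filter only through polymer X, so they had to differ.

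TNFRSF12A, Fn14, the receptor of TWEAK, fell on polymer X from the highest level of any member. The gene (hg19 chr16:3070313-3072383, plus strand) was at 278 and 251 FPKM on TCP and at 76.9 and 68.4 FPKM on polymer X (log2 fold change -1.85 ± 0.08, limma, adjusted p = 3.2e-08). Both polymer X libraries were well below both TCP libraries, and TCP was 3.63-fold above polymer X by mean FPKM. It made up 67.1 and 64.6% of the summed receptor FPKM on TCP and 21.9 and 20.6% on polymer X. Its ligand gene TNFSF12 was at 1.00 and 1.47 FPKM on TCP and at 1.56 and 1.84 FPKM on polymer X, a log2 difference of 0.28 with an interval of 0.02 to 0.53 (adjusted p = 0.044). The difference of TNFSF12 was 0.13 (adjusted p = 0.35) without TCP replicate 1, 0.43 without TCP replicate 2 and -0.08 (adjusted p = 0.54) after quantile normalization, so no direction is given for it. TNFSF12 overlaps a readthrough transcript with TNFSF13, so its value is uncertain.

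TNFRSF9, 4-1BB, a costimulatory receptor known from activated T cells, fell from a low level. The gene (hg19 chr1:7975931-8003225, minus strand) was at 2.15 and 2.26 FPKM on TCP and at 0.576 and 0.477 FPKM on polymer X (log2 fold change -1.07 ± 0.08, limma, adjusted p = 2.0e-06). The groups were apart, 4.19-fold by mean FPKM. Its ligand gene TNFSF9 was far more abundant, at 67.1 and 62.9 FPKM on TCP and at 52.2 and 47.0 FPKM on polymer X. The log2 difference of TNFSF9 was -0.39 (adjusted p = 4.9e-04) and was not called, and after quantile normalization it was -0.06 (adjusted p = 0.37).

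CD70 was the most abundant ligand gene in every library, at 187 and 171 FPKM on TCP and at 123 and 112 FPKM on polymer X. The groups did not overlap, and the log2 difference of -0.61 (95% interval -0.76 to -0.45, adjusted p = 2.8e-05) was under the fold change minimum. The 2 transcripts of CD70 ranged from -0.90 to -0.61. Its receptor gene CD27 was at 0.139 and 0.153 FPKM on TCP and at 1.05 and 1.03 FPKM on polymer X, or 7 and 9 tags against 55 and 55. The ratio of mean FPKM was 7.11-fold, while the log2 difference with the pseudocount of 1 was 0.83 (adjusted p = 1.3e-05) and CD27 was not called. Both values depend on the scale: the difference of CD27 was 2.21 and called with a pseudocount of 0.1 but 0.18 (limma, adjusted p = 0.1) after quantile normalization, where that of CD70 was -0.26 (adjusted p = 0.0025).

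Of the remaining tested receptors none was called. TNFRSF11A, RANK, was at 2.66 and 2.20 FPKM on TCP and at 3.48 and 3.44 FPKM on polymer X, a log2 difference of 0.38 (adjusted p = 0.0024) that was 0.17 (adjusted p = 0.095) after quantile normalization. TNFRSF19, TROY, was at 5.28 and 4.79 FPKM on TCP and at 5.89 and 5.67 FPKM on polymer X, a log2 difference of 0.17 with an interval of 0.00 to 0.33 (adjusted p = 0.057). RELT was at 6.66 and 7.15 FPKM on TCP and at 5.94 and 6.68 FPKM on polymer X, a log2 difference of -0.11 with an interval of -0.29 to 0.06 (adjusted p = 0.19). RELT overlapped between the groups, and the other 2 did not in the transcript used. Another TNFRSF19 transcript was at 4.83 and 4.35 FPKM on TCP and at 4.38 and 4.28 FPKM on polymer X. Its groups overlapped, with a log2 difference of -0.07, so no direction is given for TNFRSF19.

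**Figure D3:**
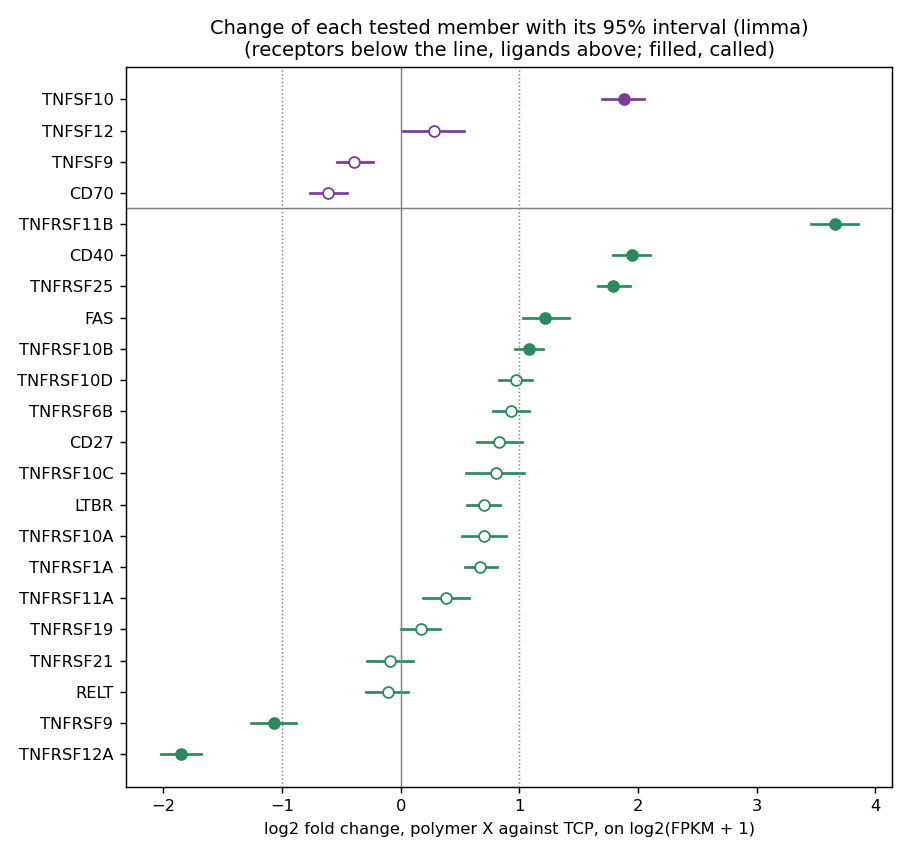
Log2 fold change of polymer X against TCP on log2(FPKM + 1) for the 22 tested members, with ligands above the line and receptors below it, and bars giving the 95% interval from limma. Filled points were called, dotted lines mark -1 and 1, and receptors run from -1.85 (TNFRSF12A) to 3.66 (TNFRSF11B).

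The other 23 members did not pass the filter and were not tested, 20 of them with a single copy in the table. Low FPKM values are whole multiples of 1 read within a tolerance of 0.1, so the depth could be recovered and the levels of these members are given as tags. Among these the ligand gene TNFSF14, LIGHT, stood highest on polymer X, with 2 and 18 tags on TCP and 169 and 225 on polymer X. The ratio of mean FPKM was 21.5-fold, although the TCP libraries differed widely from each other. With no filter on low values TNFSF14 was called, at a log2 fold change of 1.01 ± 0.08 (limma, adjusted p = 4.1e-04). Its receptor gene TNFRSF14, HVEM, had 5 and 5 tags on TCP and 55 and 86 on polymer X, a 14.5-fold ratio that was not called without the filter (log2 difference 0.53, adjusted p = 0.0022). TNFSF4, OX40 ligand, had 6 and 7 tags on TCP and 58 and 45 on polymer X, an 8.20-fold ratio, also not called without the filter (log2 difference 0.39, adjusted p = 0.0011). These 3 had the highest counts on polymer X of the members not tested, so their lying above TCP is partly built into that choice.

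TNFRSF1B, the second TNF receptor, had 0 and 1 tags on TCP and 10 and 16 on polymer X, and TNFRSF13B had 0 and 0 tags on TCP and 5 and 10 on polymer X. NGFR had 14 and 9 tags on TCP and 24 and 36 on polymer X. TNFRSF13C, the BAFF receptor, had 29 and 13 tags on TCP and 9 and 4 on polymer X, and TNFSF13, APRIL, had 59 and 57 on TCP and 29 and 45 on polymer X. None of these 5 genes was called when the filter was dropped.

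Counting TNFRSF13B, 13 of these members, 6 ligands and 7 receptors, had at most 10 tags in every library. TNFSF11 and EDA2R had none in any library, and a count of 0 allows up to 3 tags, or 0.0334 to 0.0391 FPKM for a transcript of 2000 bases. The ligand genes TNFSF8, TNFSF13B, TNFSF15 and TNFSF18 and FASLG had at most 4 tags, and so did the receptor genes TNFRSF8, TNFRSF17 and TNFRSF18. TNFRSF4, TNFRSF13B and EDAR had at most 10. TNF, LTA and LTB were listed at 0, except for 2 tags of TNF in the second TCP library. They appear 8, 7 and 8 times in the hg19 table, on chromosome 6 and its alternative haplotypes, and housekeeping genes with 7 copies there, such as CSNK2B, ABCF1 and VARS, were also listed at 0. Not every such gene was at 0: of genes with 6 or more copies 49.7% were at 0 in all 4 libraries, beside 12.2% of genes with 1 copy. An absent transcript and a value lost to the copies cannot be told apart, so no level is read for TNF, LTA and LTB.

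**Figure D4:**
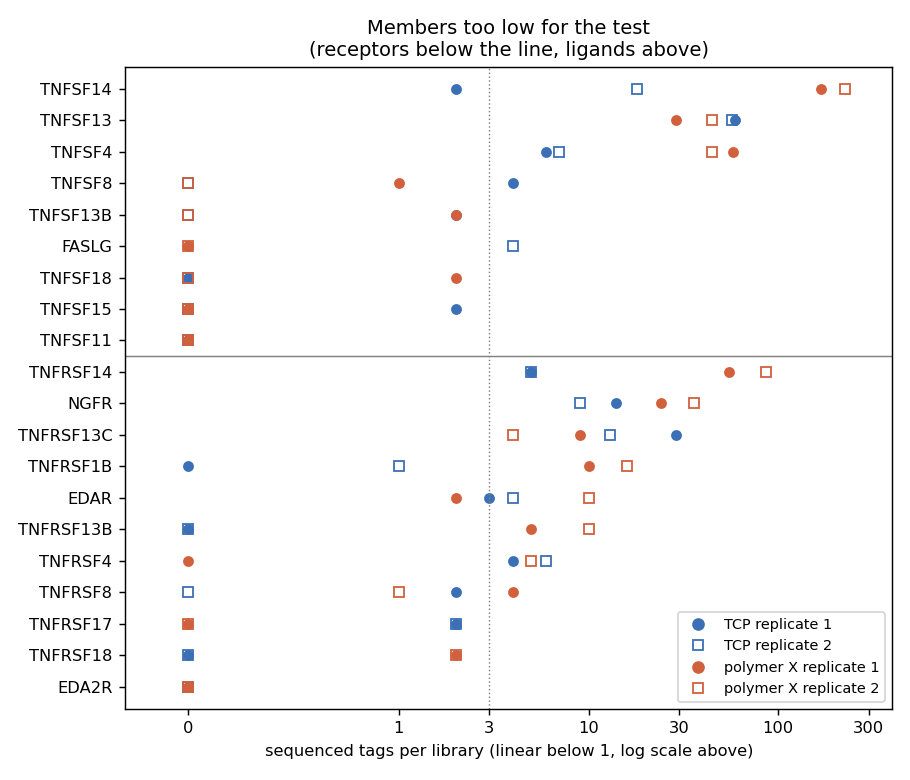
Tags per library for the 20 members that were not tested and have a single copy in the table, linear below 1 and on a log scale above, with ligands above the line and receptors below it. Symbols at the same value cover each other, the dotted line marks 3 tags, and the highest counts on polymer X are those of TNFSF14 (225), TNFRSF14 (86) and TNFSF4 (58).

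Ligands and receptors were set side by side by their fold changes. Of the 18 tested receptors 14 had a log2 fold change above 0 and 4 below, with a median of 0.75 and calls of 5 higher and 2 lower. Of the 4 tested ligands 2 lay above and 2 below, with a median of -0.05 and 1 call, higher. Over all tested genes 5600 lay above and 6364 below, with a median of -0.06. The filter let in 3 receptors through polymer X alone and 1 through TCP alone, and the median of the 14 receptors past it in both groups was 0.70. The median of receptors was 0.28 with no filter on low values. With 4 ligands the difference between the medians was not put to a test.

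In summed FPKM, CD70 and TNFSF9 made up 98.7 and 98.5% of the ligand total on TCP and 94.2 and 93.6% on polymer X. The ligand total was 257 and 238 FPKM on TCP and 185 and 170 FPKM on polymer X, so the polymer X libraries were lower. The receptor total was 414 and 388 FPKM on TCP and 352 and 332 FPKM on polymer X. Without TNFRSF12A the receptor total was 136 and 137 FPKM on TCP and 275 and 264 FPKM on polymer X, the opposite order. In bulk RNA, a smaller share of cells with a transcript and less of it per cell cannot be told apart.

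**Figure D5:**
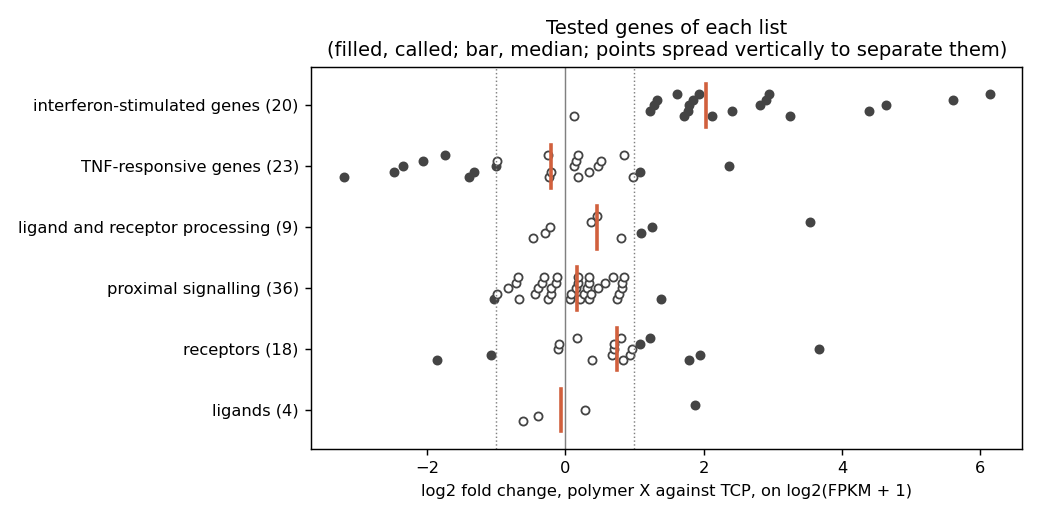
Log2 fold change of polymer X against TCP on log2(FPKM + 1) for the tested ligands, receptors and 4 other gene lists, with the number tested in brackets; filled points were called and the bar is the median. The medians are -0.05 for ligands, 0.75 for receptors, 0.18 for proximal signalling, 0.46 for processing, -0.21 for TNF-responsive genes and 2.03 for interferon-stimulated genes.

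Few genes directly below the receptors were called. Of 39 adaptors, kinases, ubiquitin enzymes and caspases 36 were tested, with 1 higher and 1 lower, 5.56% against 20.2% of all tested genes. CASP10, an initiator caspase of death receptors, rose from 0.736 and 0.683 FPKM on TCP to 3.56 and 3.42 FPKM on polymer X (log2 fold change 1.39, adjusted p = 2.4e-07). CASP10, the list's only gene called higher, passed the filter through polymer X alone, so it had to differ. MAP3K14, the NIK kinase of the alternative NF-kappaB pathway used by CD40, LTBR and TNFRSF12A, fell from 11.8 and 11.7 FPKM to 5.32 and 5.18 FPKM, a log2 fold change of -1.03 (adjusted p = 4.2e-07). Another 29 genes of the list had an adjusted p under 0.05 with a smaller fold change. RIPK3, a kinase of necroptosis, was at 0 in all 4 libraries.

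Of 10 proteases and regulators that process the ligands and receptors, 9 were tested, and 3 (33.3%) rose with none lower, beside 10.7% and 9.45% of all tested genes. MMP7, a matrix metalloprotease that can cut FAS ligand, rose from 0.280 and 0.120 FPKM on TCP to 13.7 and 12.2 FPKM on polymer X (log2 fold change 3.54, adjusted p = 3.0e-09). MMP7 passed the filter only through polymer X, so it had to differ. RHBDF1, a regulator of the TNF-shedding protease ADAM17, had a log2 fold change of 1.25, and SPPL2B, an intramembrane protease that cuts TNF, one of 1.10 (adjusted p = 3.3e-07 and 3.1e-07).

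Of 26 genes in the table that TNF is known to induce through NF-kappaB, 23 were tested, with 2 higher and 8 lower, or 8.7% and 34.8%, beside 10.7% and 9.45% of all tested genes. The 5 with the largest falls encode secreted cytokines and chemokines: IL6 (-3.20), CXCL2 (-2.48), CXCL8 (-2.35), CXCL1 (-2.06) and CCL20 (-1.74). IL6 was at 67.3 and 65.3 FPKM on TCP and at 6.77 and 5.90 FPKM on polymer X. CXCL3, CSF2 and NFKB1 also fell, and CXCL1, CXCL2 and CXCL3 are close paralogs whose reads may be shared. ICAM1, an adhesion molecule, rose by 2.37 on the log2 scale, and NFKBIE, an inhibitor of NF-kappaB, by 1.08. ICAM1 passed the filter through polymer X alone, so it had to differ. Of the 23 tested, 11 had a log2 fold change above 0 and 12 below, and the median of the list was -0.21.

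TNFSF10, FAS and TNFSF13B are known to respond to interferon, and the interferon-stimulated genes were higher on polymer X. Of 20 such genes 19 (95%) were called higher and none lower, beside 10.7% and 9.45% of all tested genes. Their median log2 fold change was 2.03, although 10 of them passed the filter only through polymer X and so had to differ. The largest were IFITM1 (6.14), IFI27 (5.61), IFI6 (4.64), OAS1 (4.39) and OAS2 (3.25). Their summed FPKM was 98.3 and 97.8 on TCP and 823 and 718 on polymer X. Their part in the TNFSF10 and FAS levels was not tested. TNFSF13B had 2 and 0 tags on TCP and 2 and 0 on polymer X, too low to test.

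The cell type markers held 7 of 10 epithelial and ovarian cancer genes at 1 FPKM in at least 2 libraries, with MUC16, CDH1 and KRT19 low. MUC1 (log2 fold change 2.63), ERBB2 (2.13), PAX8 (1.06) and EPCAM (1.05) were called higher on polymer X. EPCAM passed the filter only through polymer X, so it had to differ. KRT8 (-0.87), KRT7 (-0.76) and KRT18 (-0.44) were lower and not called. Of 12 leukocyte markers only CD68 reached 1 FPKM in at least 2 libraries, and CD3E, CD3D and MS4A1 were at 0 in all 4 libraries. The summed FPKM of the 12 was 17.3 to 17.5 on TCP and 43.5 to 46.3 on polymer X. CD68 made up nearly all of it, at 17.0 and 17.4 FPKM on TCP and at 42.3 and 44.9 FPKM on polymer X. PTPRC, the highest of the others on polymer X, reached 0.530 FPKM. None of 5 endothelial markers reached 1 FPKM in at least 2 libraries. Of 8 fibroblast markers 5 did, with summed FPKM of 17.1 to 17.8 on TCP and 76.6 to 86.7 on polymer X. COL1A2, COL3A1, DCN and LUM were called higher on polymer X, with log2 fold changes of 2.23, 2.53, 2.93 and 4.31. COL3A1, DCN and LUM passed the filter only through polymer X, so they had to differ. COL1A1 went the other way and was not called. It was at 8.21 and 8.48 FPKM on TCP and at 3.81 and 3.77 FPKM on polymer X. THY1 and PDGFRB reached at most 0.184 FPKM, and PDGFRA at most 0.291 FPKM. The part of these genes in the higher TNFRSF11B, CD40 and FAS levels was not tested. The recovered totals were 38403000 to 44917000 tags per library, and libraries of a group correlated at 0.997 or more.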

How the data were processed

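Poly(A) RNA of 4 SKOV3 libraries was sequenced. Per the submitters' processing notes, the authors used STAR 2.4.0, HOMER and DESeq with the hg19 genome. The versions of HOMER and DESeq are not given in the sources used here. The deposited table holds FPKM values, normalized by the authors to transcript length and to reads, for 50078 transcripts. For each of 19475 symbols only its most abundant transcript by mean FPKM was used. FPKM values with 3 decimals are not counts, so no count test was run. Genes with at least 1 FPKM in at least 2 libraries were tested with limma 3.58.1 in R 4.3.3 on log2(FPKM + 1), with a mean-variance trend and Benjamini-Hochberg adjustment, and called at an adjusted p under 0.05 and a log2 change of 1 or more in size. The test was checked on simulated data. Every tested member is named; of other lists, the called genes with the 5 largest changes each way. The members and gene lists were chosen with earlier results of these data known. Tags were recovered from the steps between low FPKM values, and limits from 3 tags cover counting error only. Alternatives were another pseudocount, filters, scalings, summed transcripts, no trend, a replicate block and each library left out.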

Additional observations from a re-analysis of the deposited data

How the results depend on the processing

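No called member changed direction under any alternative run. The count of members called higher was 6 and of those lower 2, and these became 10 and 2 with a pseudocount of 0.1, which added CD27, TNFRSF10C, TNFRSF10D and TNFRSF6B, and 15 and 4 with no fold change minimum. With a mean FPKM of at least 5 the counts were 4 and 1, since TNFSF10, FAS and TNFRSF9 were then too low to test. That filter also moved the median of all tested genes from -0.06 to -0.20 and the share of calls that were higher from 53.2% to 42.2%. Leaving out each library gave 6 to 7 higher and 2 lower, TNFRSF10D being added (1.01) without polyX replicate 2. TNFRSF10D was also called with a common median (1.01) and after quantile normalization (1.09), where FAS (0.99) was not called. Quantile normalization also gave TNFSF12 (-0.08) and TNFRSF21 (0.06), neither called, the opposite sign, and brought the adjusted p of CD27 (0.1), TNFRSF11A (0.095) and TNFSF9 (0.37) over 0.05. The median log2 fold change of ligands was 0.028 with a pseudocount of 0.1 and -0.496 with a mean FPKM of at least 5, and -0.107 to -0.001 with each library left out. That of receptors was 0.945 with a pseudocount of 0.1, 0.284 with no filter and 0.816 with a mean FPKM of at least 5, and 0.658 to 0.797 with each library left out, the lowest without polyX replicate 1. With a replicate block in the fit the counts stayed at 6 and 2 and the medians at -0.054 and 0.750; the correlation of the same-numbered libraries' deviations was 0.0927, so the number is no evidence of a pairing. The depth limits the members under 1 FPKM.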
